A study of Homo sapiens with 6 samples.

Results

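Insulin and insulin-like growth factors signal through a receptor, an adaptor, a lipid kinase and a protein kinase, and the genes of that relay were followed in C4-2 prostate cancer cells after inhibition of fatty acid synthase. The 10 genes were chosen by symbol and matched by their Ensembl identifiers: the receptors INSR and IGF1R, the adaptors IRS1 and IRS2, the PI3K subunits PIK3CA, PIK3R1 and PIK3R3, the lipid phosphatase INPP4B, the kinase AKT1 and the transcription factor FOXO3. All 10 were among the 14456 genes of the deposited table, and all 10 passed the filter that left 14437 genes to test. Polyadenylated RNA was sequenced from 3 libraries of cells kept in IPI-9119, which blocks the enzyme FASN, at a dose of 100 nM, and from 3 libraries of cells given 0.1% DMSO, the solvent. Treatment lasted 6 days, in medium with fetal bovine serum, which itself supplies insulin-like growth factors and lipids. C4-2 is an established prostate cancer line that came from LNCaP and grows without androgen, and both groups share that background. All libraries came from this same line, so the comparison describes C4-2 only, and whether the replicates come from separate cultures is not stated. The p-values therefore reflect library-to-library spread alone, possibly technical. In bulk RNA such as this, fewer cells of a type and less RNA per cell cannot be told apart.

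When insulin or IGF1 binds, the receptor kinase phosphorylates IRS adaptors, which recruit PI3K through its regulatory subunit. The catalytic subunit then makes a membrane lipid that draws AKT to the membrane, phosphatases remove that lipid, and AKT goes on to phosphorylate, among others, FOXO factors and inhibitors of mTOR. Phosphorylated FOXO leaves the nucleus, and when AKT is quiet FOXO returns and in many cell types raises transcription of the receptors and adaptors themselves. In many prostate cancers this relay is a main survival pathway alongside the androgen receptor.

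The recovered totals ran from 19090749 to 20422882 reads in IPI-9119 libraries and from 21952620 to 23448035 reads in DMSO libraries. Values below are normalised counts, that is, reads scaled by the size factor of their library. All 10 luminal prostate markers of C4-2 were present, with a sum of 151740 to 157310 normalised counts in IPI-9119 libraries and 258250 to 268890 in DMSO libraries. By the test given below, 8 of the 10 were lower, 1 was higher and 1 did not pass. Of all genes, 31.4% were called lower and 31.3% higher. None of 4 basal markers was listed, and 4 of 7 fibroblast and smooth muscle markers were listed, summing to 124 to 190 in IPI-9119 libraries and 130 to 152 in DMSO libraries. Of 7 leukocyte and endothelial markers 1 was listed, at 39.0 to 60.5 in IPI-9119 libraries and 44.3 to 48.7 in DMSO libraries. The part of the lower luminal markers in the results below was not tested. IPI-9119 replicate 1 stood somewhat apart from the other IPI-9119 libraries (chi-square per degree of freedom 7.42 and 9.59, against 2.30 between replicates 2 and 3). Across genes, fold changes ran against exonic length (Spearman's rho -0.172) and GC content (-0.165). A correction for both was therefore also made, with length from merged exons or from the longest protein-coding transcript. Corrected values, in that order, stand beside genes outside the 10 where they end the call, turn the direction or move the log2 fold change by over 1.5 times. Single genes could move more than these correlations show. Of the 35 genes named from the lists of other pathway genes below, a correction moved the log2 fold change of 15 by over 1.5 times.

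Of the 10 genes, 6 fell, 1 rose and 3 did not pass the test (limma on log2(value + 1), Benjamini-Hochberg adjusted p under 0.05 over all genes tested). Over all genes, 62.8% passed in either direction, 31.4% as lower and 31.3% as higher, so that a call by itself was common in this comparison. For 8 of the 10 genes no value of an IPI-9119 library lay within the DMSO range or the reverse, 2 higher and 6 lower, against 67.9% of all genes in either direction, 34% higher and 33.9% lower. With edgeR 1 gene was higher and 6 were lower, beside 31% and 31.9% of all genes, and DESeq2 made the same number of calls among the 10, beside 58.6% of all genes. The sizes ran from a 9.57-fold fall of IRS2 to a 2.88-fold rise of PIK3R3. IGF1R, IRS1 and IRS2 fell by at least 2-fold, as did 9.27% of all genes tested, and PIK3R3 was among the 7.92% that rose by at least 2-fold. The median log2 fold change was -0.31 over the 10 genes and 0.0017 over all genes. After the correction for length and GC content 4 of the 10 genes fell and 2 rose, in either version of it. Of all genes 64.8% passed with merged exons (30.7% higher, 34.1% lower) and 65.7% with the longest protein-coding transcript (30.6% higher, 35.1% lower).

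**Figure D1:**
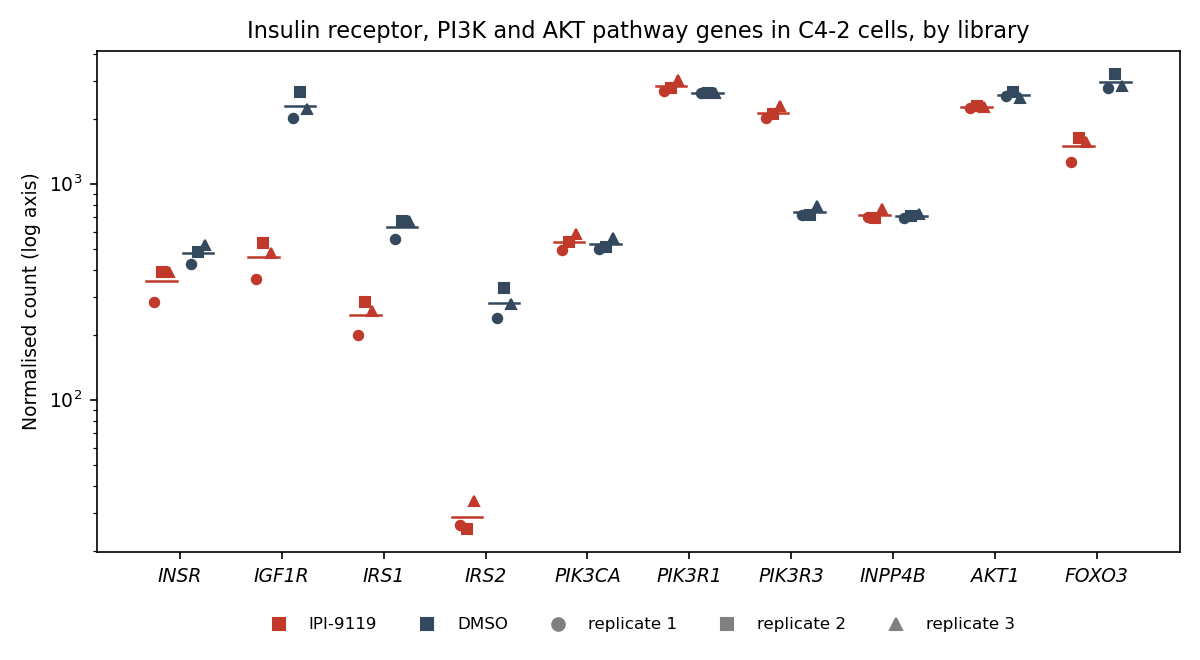
Normalised counts (log axis) of the 10 genes in each library, with IPI-9119 libraries in red to the left of DMSO libraries in dark blue, marker shapes for replicates and bars for group means. The libraries of the groups are apart for IGF1R, IRS1, IRS2, PIK3R3 and FOXO3, close for INSR, PIK3R1 and AKT1, and mixed for PIK3CA and INPP4B.

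Of the receptors, IGF1R fell 5.03-fold, and INSR was at 74.1% of the DMSO level in the uncorrected fit. IGF1R encodes the receptor for IGF1 and IGF2 (ENSG00000140443, chromosome 15, 98648539 to 98964530, plus strand, GRCh38, GENCODE 29). It had 364, 529 and 480 normalised counts in IPI-9119 libraries, against 2020.0, 2646 and 2205 in DMSO libraries. Every IPI-9119 library was far below the lowest DMSO library. The means were 457 ± 84.8 with IPI-9119 and 2290.3 ± 321 with DMSO (SD, n = 3 each), with a log2 fold change of -2.33 and an SE of 0.14 (adjusted p 8.9e-07). Only 164 of the 14437 genes fell further. The fall was smaller after correction for length and GC content, with a log2 fold change of -1.76, and of -1.56 when the correction used the longest protein-coding transcript, 12235 bases for this gene.

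INSR, the insulin receptor gene (ENSG00000171105, chromosome 19, 7112255 to 7294034, minus strand), had 283, 389 and 388 normalised counts in IPI-9119 libraries, against 425, 485 and 522 in DMSO libraries. The groups did not overlap, and IPI-9119 replicate 1 was the lowest library. Its log2 fold change was -0.44 (SE 0.12, adjusted p 0.0068). That call was lost after the correction for length and GC content, where the value was -0.14 (adjusted p 0.224), and -0.01 (0.951) with the longest protein-coding transcript. Without IPI-9119 replicate 1 the uncorrected value was -0.29 (adjusted p 0.0122).

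The balance between the receptors differed in every library. Per library the ratio of INSR to IGF1R counts was 0.777, 0.737 and 0.810 with IPI-9119, against 0.211, 0.184 and 0.237 with DMSO. Every IPI-9119 library was above every DMSO library, a 3.70-fold difference of the ratio. A ratio within a library does not depend on how libraries are scaled to each other, but it can still carry the length and GC trend. The ratios, shares and sums per kilobase here and below were not corrected for length and GC content. The two-sided exact permutation test gave p = 0.1, the smallest that 3 libraries against 3 allow, and 0.175 adjusted over the 7 ratios tested. Per kilobase of the longest protein-coding transcript, IGF1R made up 48.6% ± 1.19 of the summed receptor signal with IPI-9119 and 77.7% ± 2.20 with DMSO (SD, n = 3 each). That sum was 76.9 ± 13.6 normalised counts per kilobase with IPI-9119 and 240.47 ± 28.996 with DMSO.

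Both adaptors fell, and IRS2 fell most of the 10 genes. IRS2 (ENSG00000185950, chromosome 13, 109752698 to 109786568, minus strand), which in mouse liver and islets carries much of the insulin signal, had 26.4, 25.1 and 34.1 normalised counts in IPI-9119 libraries, against 239, 328 and 277 in DMSO libraries. These rest on 79 reads over the IPI-9119 libraries and 917 over the DMSO libraries. The groups were wide apart, and the IPI-9119 mean was 10.1% of the DMSO mean. The means were 28.5 ± 4.88 with IPI-9119 and 281 ± 45.0 with DMSO (SD, n = 3 each), with a log2 fold change of -3.26 and an SE of 0.18 (adjusted p 1.8e-09). Of all genes tested 32 fell further. After correction for length and GC content the log2 fold change was -2.63, and -2.19 with the longest protein-coding transcript.

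IRS1 (ENSG00000169047, chromosome 2, 226731317 to 226799759, minus strand), the adaptor best known from muscle and fat, had 199, 285 and 256 normalised counts in IPI-9119 libraries, against 557, 670 and 670 in DMSO libraries. The groups were well apart, and IPI-9119 replicate 1 was the lowest library. The log2 fold change was -1.36 (SE 0.12, adjusted p 4.5e-07), and -1.01 and -0.79 after the corrections. The ratio of IRS2 to IRS1 was 0.137, 0.0913 and 0.136 with IPI-9119, against 0.430, 0.491 and 0.415 with DMSO, a 3.72-fold lower ratio (exact permutation test, two-sided, p = 0.1; adjusted 0.175). Per kilobase, IRS2 made up 12.3% ± 2.40 of the IRS1 and IRS2 sum with IPI-9119 and 34.6% ± 2.02 with DMSO (SD, n = 3 each).

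The sequences before the starts of IRS2 and IGF1R, the genes with the largest falls, and of PIK3R3, the gene that rose, are shown because these genes moved most. They are the 250 bases upstream of the annotated start from RefSeq (GRCh38.p14), 5′ to 3′ on the gene's strand, with capitals for a match to any of 4 motifs searched on both strands. The regions are chr13:109786584-109786833 (minus), chr15:98648289-98648538 (plus) and chr1:46133037-46133286 (minus).
IRS2: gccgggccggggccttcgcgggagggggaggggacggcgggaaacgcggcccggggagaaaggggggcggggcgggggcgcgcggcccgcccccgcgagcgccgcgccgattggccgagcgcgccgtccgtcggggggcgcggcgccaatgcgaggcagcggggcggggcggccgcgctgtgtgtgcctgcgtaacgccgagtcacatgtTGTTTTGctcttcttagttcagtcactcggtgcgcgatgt
IGF1R: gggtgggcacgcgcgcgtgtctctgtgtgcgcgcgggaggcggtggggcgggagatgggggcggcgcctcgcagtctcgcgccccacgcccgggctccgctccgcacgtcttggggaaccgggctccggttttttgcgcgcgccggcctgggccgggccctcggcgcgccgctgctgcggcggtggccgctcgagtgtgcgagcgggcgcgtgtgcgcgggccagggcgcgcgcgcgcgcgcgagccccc
PIK3R3: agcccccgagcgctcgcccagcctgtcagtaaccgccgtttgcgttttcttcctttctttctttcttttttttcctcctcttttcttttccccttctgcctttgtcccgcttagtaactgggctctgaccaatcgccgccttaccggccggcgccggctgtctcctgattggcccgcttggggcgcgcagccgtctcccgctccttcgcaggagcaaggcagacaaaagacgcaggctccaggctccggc
The GC content of these stretches was 76.4% for IRS2, 81.2% for IGF1R and 60.4% for PIK3R3, against a median of 58.0% over 35116 windows of the same length. The capitals in IRS2 mark CAAAACA on the opposite strand, the core of the insulin response element that FOXO factors bind, 40 bases before the start. It was found in 4.30% of all windows. The FOXO element GTAAACA, in 2.98% of all windows, matched among the 10 genes in a window of PIK3CA, 149 bases before the start. The E-box CACGTG, in 6.34% of windows, matched in a window of INPP4B, and the sterol regulatory element TCACNCCAC, in 0.883%, matched in none of the 27 windows of the 10 genes. A match is a run of letters and was not tested for binding, and the motifs do not overlap each other in these windows. PIK3R3 has 6 annotated windows, of which the one at the GENCODE start is shown.

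Among the PI3K subunits, the regulatory subunit gene PIK3R3 rose almost 3-fold, while PIK3R1 and the catalytic subunit gene PIK3CA did not pass the test. PIK3R3 (ENSG00000117461, chromosome 1, 46040140 to 46133036, minus strand) encodes the short regulatory subunit that docks on phosphorylated receptors and IRS proteins. It had 2022, 2094 and 2290 normalised counts in IPI-9119 libraries, against 713, 720 and 789 in DMSO libraries. All IPI-9119 libraries were far above all DMSO libraries, and the spread within each group was small. The means were 2135 ± 139 with IPI-9119 and 741 ± 41.9 with DMSO (SD, n = 3 each), with a log2 fold change of 1.53 and an SE of 0.066 (adjusted p 2.0e-10). It was 1.54 and 1.58 after the corrections for length and GC content. Another annotated gene on the same strand, AL358075.4, shares 17.4% of the exonic bases of PIK3R3, and reads in those bases cannot be told apart.

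PIK3R1 (ENSG00000145675, chromosome 5, 68215720 to 68301821, plus strand) encodes the main regulatory subunit, which holds the catalytic subunit stable and inactive until it is recruited. It had 2694, 2769 and 3013 normalised counts in IPI-9119 libraries, against 2622, 2638 and 2633 in DMSO libraries. The IPI-9119 values were all slightly higher, but the difference did not pass the test (log2 fold change 0.10, 95% interval -0.01 to 0.21, adjusted p 0.109). It passed without IPI-9119 replicate 1 (0.13, adjusted p 0.0243). PIK3CA (ENSG00000121879, chromosome 3, 179148114 to 179240093, plus strand), which encodes the catalytic subunit most often mutated in cancer, had 493, 539 and 583 normalised counts in IPI-9119 libraries, against 501, 510.5 and 561 in DMSO libraries. The groups overlapped, and the 95% interval of the log2 fold change ran from -0.15 to 0.22 (adjusted p 0.721). Exons of KCNMB3 on the opposite strand cover 35.8% of the exonic bases of PIK3CA, and the genome also holds a partial pseudogene copy of it, so its level is uncertain where reads could be shared.

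The regulatory subunits stood in other proportions in the treated libraries. The ratio of PIK3R3 to PIK3R1 was 0.751, 0.756 and 0.760 with IPI-9119, against 0.272, 0.273 and 0.2999 with DMSO. The IPI-9119 values were nearly identical, the DMSO values spread more, and the groups were 2.68-fold apart (exact permutation test, two-sided, p = 0.1; adjusted 0.175). Per kilobase, PIK3R3 made up 48.2% ± 0.175 of the PIK3R1, PIK3R2 and PIK3R3 sum with IPI-9119 and 25.6% ± 1.17 with DMSO, and PIK3R1 made up 51.1% ± 0.129 with IPI-9119 and 72.7% ± 0.718 with DMSO (SD, n = 3 each). The summed level of these regulatory subunits was 789 ± 48.6 normalised counts per kilobase with IPI-9119 and 516 ± 5.66 with DMSO. The sum of the catalytic subunits PIK3CA, PIK3CB and PIK3CD was 601 ± 36.6 with IPI-9119 and 615 ± 22.3 with DMSO, within the spread of the libraries. PIK3CB, a widely expressed catalytic subunit, held the largest share of that sum, 81.8% ± 1.37 with IPI-9119 and 73.7% ± 1.53 with DMSO. Its own change did not pass the test (log2 fold change 0.12, adjusted p 0.071, and 0.03 after either correction). The share of PIK3CD was 8.30% ± 0.784 with IPI-9119 and 16.9% ± 1.91 with DMSO. PIK3R2 and PIK3CB were added to complete the families after their values were seen. The ratio of PIK3R1 to PIK3CA was 5.45, 5.13 and 5.16 with IPI-9119, against 5.23, 5.16 and 4.69 with DMSO, and the groups overlapped (exact permutation p = 0.5; adjusted 0.583).

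**Figure D2:**
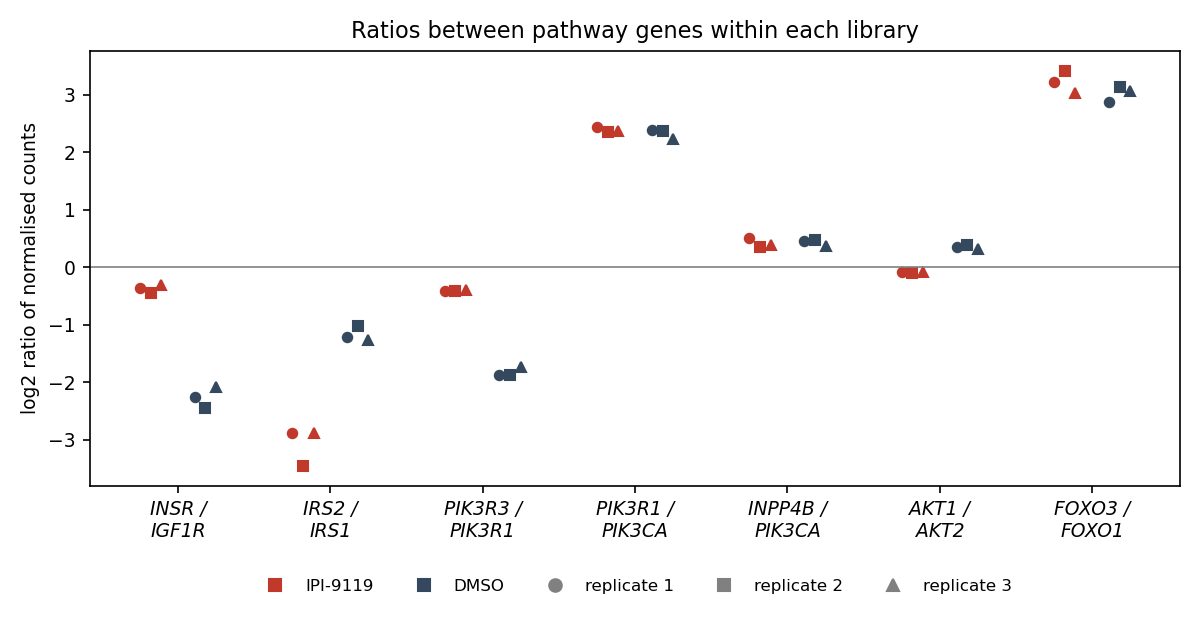
Log2 ratio of the normalised counts of gene pairs within each library, IPI-9119 in red to the left of DMSO in dark blue, with marker shapes for replicates. The groups are apart for INSR to IGF1R, IRS2 to IRS1, PIK3R3 to PIK3R1 and AKT1 to AKT2, and overlap for PIK3R1 to PIK3CA, INPP4B to PIK3CA and FOXO3 to FOXO1.

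INPP4B (ENSG00000109452, chromosome 4, 142023160 to 142847432, minus strand) encodes a lipid phosphatase that acts downstream of PI3K and is regarded as a brake on AKT in the prostate. It had 700.0, 692 and 763 normalised counts in IPI-9119 libraries, against 692, 710.5 and 722 in DMSO libraries. The groups overlapped, with a log2 fold change of 0.02 (95% interval -0.13 to 0.17, adjusted p 0.823). The ratio of INPP4B to PIK3CA was 1.42, 1.28 and 1.31 with IPI-9119, against 1.38, 1.39 and 1.29 with DMSO (exact permutation p = 0.9; adjusted 0.9).

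AKT1 (ENSG00000142208, chromosome 14, 104769349 to 104795751, minus strand), the central kinase of the relay, was slightly lower in the uncorrected fit and higher after the correction for length and GC content. It had 2230, 2298 and 2262 normalised counts in IPI-9119 libraries, against 2537, 2670.3 and 2488 in DMSO libraries. The groups did not overlap, and the IPI-9119 mean was 88.2% of the DMSO mean. The log2 fold change was -0.18 (SE 0.050, adjusted p 0.0060). After the correction with merged exons the log2 fold change was 0.91 (adjusted p 1.2e-09). With the longest protein-coding transcript (3916 bases) it was 0.20 (adjusted p 0.00094). The merged exons span 11162 bases, including a transcript with a retained intron. The GC content used with them, 62.1%, is that of the longest annotated transcript. The direction of AKT1 thus depends on the correction for length and GC content. AKT2, its close relative with a main role in insulin-stimulated glucose uptake, had a mean of 2404 ± 52.2 normalised counts with IPI-9119 and 2005 ± 23.1 with DMSO (SD, n = 3 each) and rose (log2 fold change 0.26, adjusted p 0.00031), also after correction (1.24 and 0.93). The ratio of AKT1 to AKT2 was 0.948, 0.935 and 0.942 with IPI-9119, against 1.28, 1.32 and 1.24 with DMSO (exact permutation p = 0.1; adjusted 0.175). Their sum per kilobase in the uncorrected values was 1032 ± 18.6 with IPI-9119 and 1033 ± 27.5 with DMSO. Both genes were higher after either correction, and a corrected sum was not computed.

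FOXO3 (ENSG00000118689, chromosome 6, 108559835 to 108684774, plus strand), a transcription factor that AKT keeps out of the nucleus, fell to 50.4% of its DMSO level. It had 1264, 1634 and 1562 normalised counts in IPI-9119 libraries, against 2784, 3234.5 and 2830 in DMSO libraries. The highest IPI-9119 library lay well under the lowest DMSO library. The log2 fold change was -0.99 (SE 0.092, adjusted p 2.5e-06), and -0.86 and -0.67 after the corrections. The near-identical FOXO3B copy may share some of its reads. FOXO1 fell as well, with a mean of 159 ± 28.99 normalised counts with IPI-9119 and 360.4 ± 22.2 with DMSO (log2 fold change -1.19, adjusted p 2.1e-06). The ratio of FOXO3 to FOXO1 overlapped between groups (exact permutation p = 0.3; adjusted 0.42). The sum of FOXO1, FOXO3 and FOXO4 per kilobase was 299 ± 34.7 with IPI-9119 and 599 ± 40.9 with DMSO, and FOXO3 held 67.6% ± 2.19 of it with IPI-9119 and 67.0% ± 1.61 with DMSO. FOXO4 was added to complete the family after its values were seen.

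**Figure D3:**
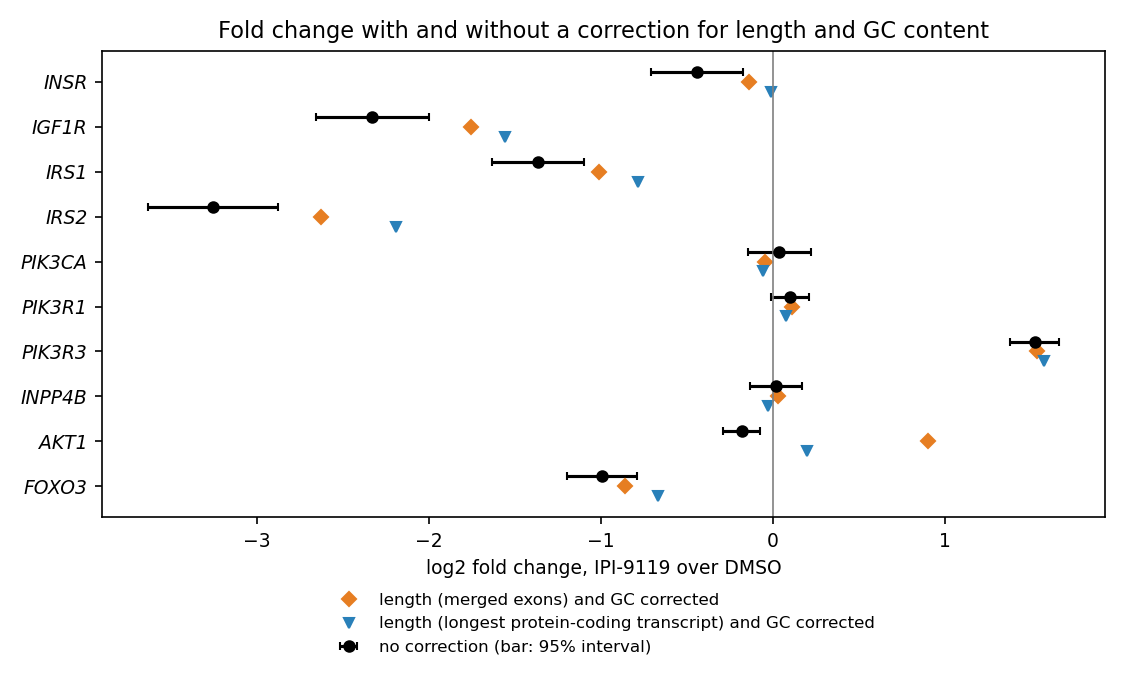
Log2 fold change of each gene, IPI-9119 over DMSO, uncorrected (black, with its 95% interval) and after correction for GC content and for length from merged exons (orange) or the longest protein-coding transcript (blue). IGF1R, IRS1, IRS2 and FOXO3 lie below 0 and PIK3R3 above 0 in all 3 versions, INSR moves to near 0, and AKT1 changes side.

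The order of the genes by level differed between the groups. Per kilobase of the longest protein-coding transcript, the order with IPI-9119 was AKT1 (578 ± 8.75 normalised counts per kilobase, SD, n = 3), PIK3R1 (403 ± 23.8), PIK3R3 (381 ± 24.7), FOXO3, INPP4B, PIK3CA, INSR, IGF1R, IRS1 and IRS2 (3.50 ± 0.599). PIK3R1 and PIK3R3 overlapped there, as did INSR and IGF1R. With DMSO the order was AKT1 (655 ± 24.1), FOXO3 (402 ± 33.8), PIK3R1 (375 ± 1.15), IGF1R, PIK3R3, INPP4B, IRS1, PIK3CA, INSR and IRS2 (34.6 ± 5.53). IRS1, PIK3CA and INSR all overlapped with each other there. IGF1R ranked 8 with IPI-9119 and 4 with DMSO, and PIK3R3 ranked 3 with IPI-9119 and 5 with DMSO. IRS2 was lowest in both groups.

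Other genes of the pathway were taken from 10 lists drawn up by role, with 148 of 179 genes listed and tested. Of these 42 rose, 60 fell and 46 did not pass, with a median log2 fold change of -0.08, and of -0.05 after the correction with merged exons. The share called was 68.9% (28.4% higher, 40.5% lower), against 62.8% of all genes (31.3% higher, 31.4% lower), and the counts of each list below stand against those same shares of all genes. Among 23 receptor adaptors and negative regulators, 13 fell, 1 rose and 9 did not pass (median -0.37, and -0.17 with that correction). SOCS2, a feedback inhibitor of cytokine and growth hormone signalling, had 917 ± 44.5 normalised counts with IPI-9119 and 2646 ± 92.0 with DMSO (log2 fold change -1.53). CBL, a ubiquitin ligase that removes active receptors, fell (-0.90, and -0.68 and -0.53 corrected). Among 9 genes in the list of IGF ligands and binding proteins 3 rose, 1 fell and 5 were without a call (median 0.12, corrected 0.013). That list also holds IGF2R, IGF2BP3 and IDE, which are neither IGF ligands nor IGFBP genes. IGFBP2, which binds IGFs outside the cell, had 1904 ± 84.8 normalised counts with IPI-9119 and 958 ± 32.0 with DMSO (0.99). IGF2R, a scavenger receptor for IGF2, was lower (-0.61), but the value was -0.01 after the correction for length and GC content, and 0.09 with the longest protein-coding transcript.

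The 9 other receptor tyrosine kinases split into 3 that rose, 3 that fell and 3 not past, with a median of -0.12 that turned to 0.34 with the correction for merged exons. EGFR fell (-1.13, adjusted p 0.00055, and -0.79 and -0.73 corrected), and DDR1, a collagen receptor, rose (0.67, and 1.56 and 1.28 corrected). ERBB2 was lower (-0.85), a call lost after the correction with merged exons (-0.12, adjusted p 0.0765) and kept with the longest protein-coding transcript (-0.22). Among 9 genes in the list of other PI3K subunits 5 fell, 2 rose and 2 did not pass (median -0.20, corrected -0.17). That list also holds PIK3IP1 and PIK3AP1, which are not subunits. PIK3IP1, a membrane protein that inhibits PI3K, had 228 ± 20.6 normalised counts with IPI-9119 and 58.9 ± 11.2 with DMSO (log2 fold change 1.95), and PIK3C2A, a class II kinase, rose by 0.50 on the log2 scale. PIK3CD, the catalytic subunit best known from leukocytes, fell (-1.05, and -0.69 and -0.40 corrected). PIK3C2B, another class II kinase, fell as well (-0.92, and -0.44 and -0.27 corrected). Among 14 phosphoinositide phosphatases 7 did not pass, 4 fell and 3 rose (median 0.05, corrected 0.037). INPP5K (-0.75) and INPPL1 (-0.88), which remove a phosphate from the lipid signal, fell, and INPPL1 was at -0.29 with the first correction and lost its call with the longest protein-coding transcript (-0.11). PIP4P2 rose in the uncorrected fit (0.38) and did not pass after either correction (0.12 in both). INPP5F was just past the threshold (0.22, adjusted p 0.0451) and lost its call under 10 of the 19 alternatives, among them edgeR (adjusted p 0.0541), DESeq2 (0.0928) and both corrections.

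Among 13 other AKT family kinases and their regulators 6 fell, 3 rose and 4 did not pass (median -0.27, corrected -0.14). SGK1, a relative of AKT that is also activated by PI3K, had 225 ± 24.2 normalised counts with IPI-9119 and 909 ± 40.3 with DMSO (-2.01). PHLPP1, a phosphatase that switches AKT off, fell (-1.33, and -0.73 and -0.62 corrected). PPP2R2A, a subunit of a phosphatase acting on AKT, rose (0.41, and 0.31 and 0.21 corrected). AKT substrates split evenly, as 6 of 18 were higher, 6 lower and 6 without a call (median -0.05, corrected 0.030). The paralogs TBC1D1 and TBC1D4, which restrain glucose transporter traffic until AKT phosphorylates them, went opposite ways. TBC1D1 had 989 ± 112 normalised counts with IPI-9119 and 506 ± 7.79 with DMSO (0.96), and TBC1D4 had 627 ± 39.2 with IPI-9119 and 1524 ± 92.2 with DMSO (-1.28). PFKFB2, a regulator of glycolysis, rose (0.66) and the kinase WNK1 fell (-1.87).

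Among 20 genes of mTOR complexes and effectors 10 fell, 5 rose and 5 did not pass (median -0.20, corrected -0.15). MTOR, the kinase that senses nutrients, had 818 ± 138 normalised counts with IPI-9119 and 2323 ± 227 with DMSO (-1.51, and -0.99 and -0.91 corrected). ULK1, which starts autophagy, fell to 102 ± 10.6 with IPI-9119, against 462 ± 23.8 with DMSO (-2.18, and -1.30 and -1.06 corrected). RHEB, the activator of mTOR, and TBC1D7, a subunit of the complex that inhibits RHEB, rose by 0.61 and 0.77 on the log2 scale.

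In the FOXO family and its partners, 12 genes, 5 rose, 4 fell and 3 had no call (median 0.04, corrected -0.075). SKP2, a ubiquitin ligase subunit with FOXO1 among its substrates, had 739 ± 15.6 normalised counts with IPI-9119 and 286 ± 24.7 with DMSO (1.37). YWHAH, of the family that holds phosphorylated FOXO in the cytosol, rose (0.50, and 0.35 and 0.33 corrected), and USP7, which removes ubiquitin from FOXO4, fell (-1.09). Of 26 known FOXO target genes, 12 were higher, 11 were lower and 3 had no call (median 0.03, corrected -0.028). TXNIP, an inhibitor of glucose uptake, had 10944 ± 541 normalised counts with IPI-9119 and 746 ± 120.2 with DMSO (3.88), and the stress-response gene SESN3 had 5766 ± 767 with IPI-9119 and 1374 ± 46.9 with DMSO (2.06). BCL6, a transcriptional repressor, and KLF4, a differentiation factor, fell (-1.51 and -2.14). These genes have other regulators too, and ERBB3, PIK3IP1, RICTOR and TRIB1 also stand in other lists. IGFBP1, also in another list, had no values in these data and is not among the 26.

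**Figure D4:**
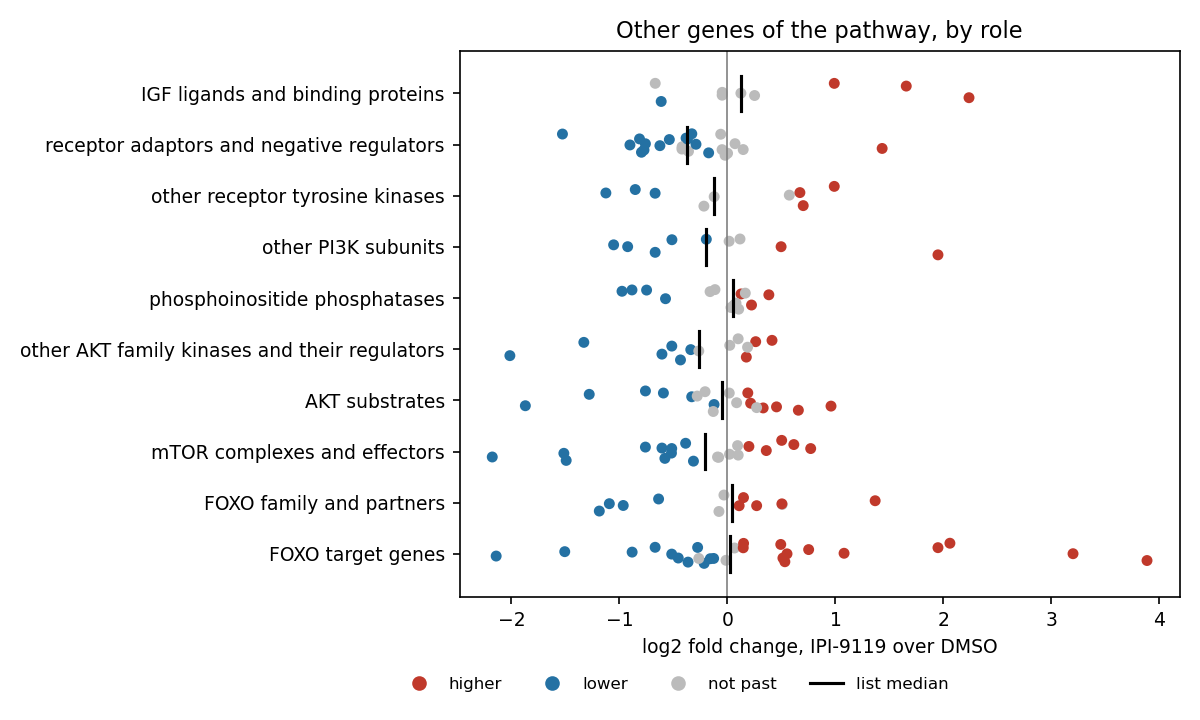
Log2 fold change, IPI-9119 over DMSO, of each tested gene in the 10 lists of other pathway genes, in red where higher, blue where lower and grey where not past the threshold, with a black bar for the list median, all uncorrected. The medians lie between -0.37 for receptor adaptors and negative regulators and 0.12 for IGF ligands and binding proteins.

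Log2 profiles over the 6 libraries were each centred on the DMSO mean of their gene, so the level of a gene does not count. The root mean square distance between profiles was taken over 10363 other genes with a mean of at least 100 normalised counts. By that distance the genes most like PIK3R3 were TP53INP1 (distance 0.051), NUDT1 (0.056) and CYP51A1 (0.057). The genes most like IRS2 were PACS1 (0.12), PPL (0.14) and NFIC (0.14). PACS1 had 116 ± 15.6 normalised counts with IPI-9119 and 1168 ± 127 with DMSO (log2 fold change -3.32).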

How the data were processed

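The deposited signal holds read counts per gene, scaled by the authors with 1 size factor per library (seen from the values). All values came out as whole reads within 0.01, with 1 read worth 0.894 to 1.10. Named without role per the submitters' processing notes are STAR 2.5.2b, Trimmomatic 0.36, Subread 1.5.2, featureCounts, DESeq2 and GRCh38. Strand setting and annotation of the counting are not given in the sources used here. Limma 3.58.1 (R 4.3.3, trend and robust) compared all IPI-9119 with all DMSO libraries on log2(value + 1), over genes with a mean of at least 10. This scale shrinks fold changes of low genes. Reads recovered from the deposited values were tested with edgeR 4.0.16 (quasi-likelihood, 9072 genes called) and DESeq2 1.42.0 (8460), against 9061 with limma. Counts covered 14409 genes of GENCODE 29, whose merged exons and longest transcripts gave length and GC content. The correction subtracted, per library, a spline (4 degrees of freedom) of log2 deviations on both. Its version with the longest protein-coding transcript was chosen after seeing the data. The fits and the correction with merged exons were tried on simulated counts. Those held far fewer changed genes than were called here, and no GC trend. The version with the longest protein-coding transcript was not simulated. Genes, lists and tests were chosen with earlier results of these data known. Named genes were the 10, AKT2, FOXO1 and, per list, the 2 genes that rose most and the 2 that fell most, if called and averaging at least 100; 1 further gene of the rule is not reported here. Precision is lowest for genes with few reads.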

Additional observations from a re-analysis of the deposited data

How the results depend on the processing

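IGF1R, IRS1, IRS2, PIK3R3 and FOXO3 passed in the same direction under all 19 alternatives. These were a pseudocount of 0.5 or 8, a filter removed or raised to a mean of 50, TMM and quantile scaling, no trend and no robust moderation, edgeR, DESeq2, each library left out, a replicate block, and the corrections for length and GC content with merged exons, the same with a replicate block, and with the longest protein-coding transcript. The members called higher, 1 in the reported fit, numbered 2 after either correction, 3 with the replicate block and correction together, and 1 to 2 with a library left out. PIK3R1 was the gene added without IPI-9119 replicate 1 and with block and correction together. The members called lower numbered 4 under each correction and 6 under the others, except for 5 with no trend and no robust moderation, where INSR lost its call (adjusted p 0.0505). AKT1 reversed under the corrections, to 0.91 without and with the replicate block, and to 0.20 with the longest protein-coding transcript. PIK3CA, not past in any fit, was -0.045 after the correction without and with the block, -0.057 with the longest protein-coding transcript and -0.022 to 0.10 with a library left out. INPP4B was -0.028 with the longest protein-coding transcript and -0.025 to 0.046 with a library left out, and IGF2R 0.091 with the longest protein-coding transcript. The log2 difference of the INPP4B to PIK3CA ratio ran from -0.061 to 0.011 with a library left out. Some list counts of higher genes also moved by over 1.5 times: receptor adaptors and negative regulators (1) to between 0 and 3, other receptor tyrosine kinases (3) to 6 with the longest protein-coding transcript, phosphoinositide phosphatases (3) to 1 or 5, with 1 under TMM, edgeR and DESeq2, and the FOXO family and partners (5) to 3, or 2 with the longest protein-coding transcript. INPP5F had adjusted p values of 0.0332 to 0.154 with a library left out. The cause was not tested. Whether replicate numbers pair the libraries is not settled. Deviations from the group mean correlated at 0.431, 0.255 and -0.029 between same-numbered libraries. For IPI-9119 replicates 1 and 2 the same-numbered DMSO library correlated best, and for IPI-9119 replicate 3 DMSO replicate 2 did (0.345). The replicate block gave 4797 higher and 4799 lower genes, against 4522 and 4539 without it. Among the 10 genes it gave 1 higher and 6 lower. IRS2, with 79 reads in the IPI-9119 libraries, is the gene most limited by depth.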

Other observations

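In both groups, replicate 1 held the lowest value of INSR, IGF1R, IRS1, FOXO3, PIK3CA, PIK3R1 and PIK3R3. Replicate 3 held the highest of PIK3CA, PIK3R3 and INPP4B in both groups. IRS2 was also lowest in replicate 1 among DMSO libraries (239), while among IPI-9119 libraries replicate 2 was lowest (25.1). With 3 libraries a group this is a description of these libraries.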
